A study of Mus musculus with 14 samples.

Results

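Preneoplastic cerebellar cells, labelled pretumor, were compared with granule cell precursors, labelled GCP, across the whole expression array. The rule took the 5 pretumor arrays and the 4 GCP arrays of a series of 14, and all 12422 probe sets that are not array controls. Every array came from mice that the labels describe as heterozygous for patched (Ptch1), in a line kept by breeding with 129X1/SvJ mice, so the GCP samples carried the same heterozygous patched allele as the pretumor samples. The GCP samples were taken at 7 days of age and the pretumor samples at 6 weeks. A further group of 5 arrays held tumor cells from mice aged 10 to 25 weeks with signs of medulloblastoma, and it entered the fit and is cited beside single genes. All cells were freed from cerebella with papain and DNase, collected from a Percoll step gradient, and frozen without sorting by flow cytometry. The labels give neither sex nor pooling, and do not state that the samples of a group are separate animals. The p-values therefore speak of the variation among these arrays alone, and part of that variation may be technical. Age and stage change together between the groups and cannot be told apart. A Y-linked transcript was also unevenly spread between the groups, as described below.

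Granule cell precursors divide in the external germinal layer of the young cerebellum under Sonic hedgehog, a protein secreted by Purkinje cells, and then leave the cell cycle, migrate inward and become granule neurons. Ptch1 is the hedgehog receptor, and without ligand it holds the signal transducer Smo in check. Mice that lack a working copy of Ptch1 can keep dividing granule-like cells on the cerebellar surface after the normal layer has gone, and some of them develop medulloblastoma. The wild-type cerebellum at the later age normally has no external germinal layer, so the comparison sets the dividing precursors of the young cerebellum against cells collected long after that layer would be gone.

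Values are log2 intensities. An intensity of 16, or 4 on the log2 scale, was taken after seeing the data as the top of a band of low values near background, which held 70.4% of the values on the 9 arrays. The median intensity of an array ran from 4.12 to 4.39. Precision is set by how few arrays there are. The GCP arrays formed 2 closely alike pairs: GCP 1 correlated with GCP 2 at r = 0.998 and GCP 3 with GCP 4 at r = 0.998, over all probe sets, against 0.994 to 0.996 across the pairs. The same pairs differed in the log2 ratio of the 3' to the 5' control signal of Gapdh, at 0.46 and 0.56 in GCP 1 and GCP 2 and -0.018 in each of GCP 3 and GCP 4. The ratio was 0.79, 1.08 and 0.85 in pretumor 1, 2 and 4, against 0.0056 in pretumor 3 and 0.19 in pretumor 5, so both groups held arrays of high and of low ratio. Pretumor 3 correlated with the other pretumor arrays at 0.987 to 0.992 and stood apart further in its Y-linked transcripts, described below.

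The fit called 541 of 12422 probe sets between pretumor and GCP samples, or 4.36%, with 207 higher and 334 lower in pretumor. It was a limma fit of 3 group means, and a probe set was called at a Benjamini-Hochberg adjusted p under 0.05 over all 12422. Counted by gene, with the brightest probe set standing for each, 164 of 8251 genes were higher (1.99%) and 268 lower (3.25%). The arrays of the groups did not overlap in 453 genes with pretumor higher (5.49%) and 543 with pretumor lower (6.58%). These shares of all genes are the background for the list counts below. Of the genes called higher, 53 changed at least 2-fold and 13 at least 4-fold, and of those called lower, 53 and 8. Both group means lay in the low band for 52 of the genes called higher and 100 of those called lower, and for these no fold is given. Where 1 mean lay in the band, the fold is a lower bound against an intensity of 16. The median difference over all genes was -0.01. In bulk samples a lower level can come from fewer cells of a type or from less RNA per cell, and these cannot be told apart.

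**Figure D1:**
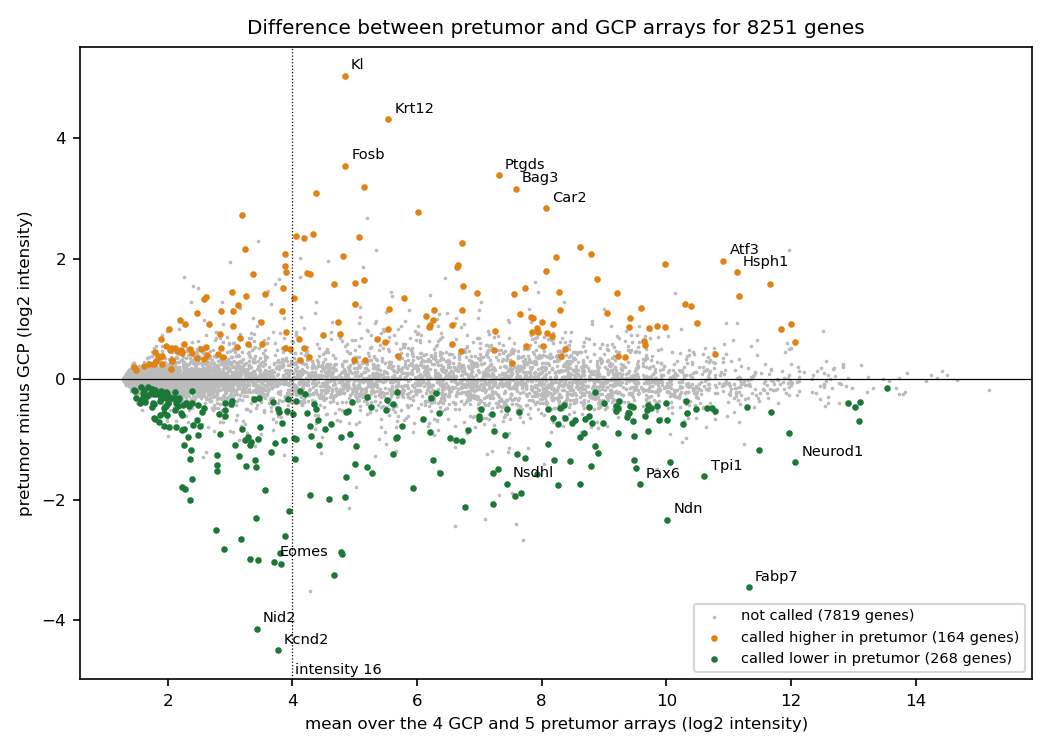
Difference between the group means (pretumor minus GCP, log2 intensity) against the mean over the 9 arrays (log2 intensity), 1 point per gene for 8251 genes. The 164 genes called higher are orange, the 268 called lower are green, and the dotted line marks an intensity of 16. Fabp7 stands out as a bright gene with a large fall, and Kl and Krt12 have the largest rises.

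Averaging each GCP pair into 1 sample left 168 probe sets called, 48 higher and 120 lower, of which 166 were among the 541. Of the 94 called genes that the naming rule gave, 55 lost their call in that fit. Called genes of the text that kept it with both means above the low band include Fabp7, Ndn, Tpi1, Nsdhl, Hmgcs1, Msmo1, Fdps, Fdft1, Ptn, Tagln3, Pfn2, Tmsb4x and Col4a1 among the falls and Bag3, Hsph1, Hspa1a, Hspd1, Dnajb1, Atf3, Egr2, Cdc6, Txnip, Krt10, Ptgds and Lyz2 among the rises. Without GCP 4 the count was 331, with 124 higher and 207 lower. With the Gapdh ratio as a covariate, an alternative added after seeing the data, 804 were called, 300 higher and 504 lower, and 454 of the 541 were among them.

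Most transcription factors of the granule lineage did not pass the test in either direction. Zic1 and Nfix, both in the list of lineage factors, were among the brightest genes on the array. Zic1 was at 12.74 ± 0.11 in GCP and 12.59 ± 0.16 in pretumor (SD, n = 4 and 5, here and below), with a difference of -0.15 ± 0.11 (SE) and adjusted p = 0.621. Nfix was at 13.21 ± 0.08 and 13.25 ± 0.18 (adjusted p = 0.969). Of 26 measured lineage factors 0 were called higher and 3 lower, namely Pax6, Neurod1 and Id4, and the median difference of the list was -0.05. Atoh1, the factor that specifies the precursors, lay in the low band on every array, at 1.95 ± 0.10 and 1.90 ± 0.20, so its probe set does not check the label.

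Pax6, a homeobox factor of granule cells and their precursors, read 10.39, 10.38, 10.83 and 10.57 on the GCP arrays and 8.02, 8.00, 9.67, 9.05 and 9.24 on the pretumor arrays. Every pretumor array lay below every GCP array, and pretumor 3 was the closest to them. The level fell 3.35-fold, by 1.75 ± 0.33 log2 units (SE, adjusted p = 0.0108). Neurod1, which drives granule neuron differentiation, read 12.70, 12.84, 12.86 and 12.90 in GCP and 11.16, 11.12, 11.22, 11.97 and 11.80 in pretumor. The GCP arrays were tightly grouped, the groups did not overlap, and the fall was 2.59-fold (-1.37 ± 0.24 log2 units, SE, adjusted p = 0.00706). Id4, an inhibitor of basic helix-loop-helix factors, stood at 5.17 ± 0.16 and 4.63 ± 0.28 (adjusted p = 0.0395), and it lost its call without any 1 of 9 arrays, namely the 4 GCP arrays, pretumor 1, 3 and 5, and tumor 1 and 4 (adjusted p up to 0.119). With the GCP pairs averaged, the adjusted p of Pax6 was 0.114, of Neurod1 0.0886 and of Id4 0.239.

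The limma fit called no gene of the hedgehog pathway. Of 17 measured members 0 were called in either direction, 3 had an unadjusted p under 0.05 (Gli1, Gli2 and Sfrp1), at a median difference of -0.08, and 11 lay in the low band in both groups. Ptch1 read 7.51, 7.28, 7.25 and 7.43 in GCP and 7.85, 7.36, 7.83, 7.50 and 7.11 in pretumor, with overlapping groups and a difference of 0.16 ± 0.25 (SE, adjusted p = 0.884). Its level does not check the genotype, which all groups share. Gli1, a transcription factor of the pathway and one of its targets, read 2.11, 2.11, 1.93 and 1.99 in GCP and 2.64, 2.50, 2.43, 2.41 and 2.58 in pretumor. These arrays did not overlap, but all lay in the low band and the test was not passed (adjusted p = 0.124). Gli1 was called when the 9 GCP and pretumor arrays were fitted alone (adjusted p = 0.00613) and without tumor 4. The list count was then 2 higher and 1 lower for the 9 arrays alone, and it was 1 higher without tumor 3 or without tumor 4. Sfrp1, a secreted Wnt antagonist, read 9.67, 9.53, 9.06 and 9.14 in GCP and 10.81, 10.67, 10.69, 10.76 and 10.97 in pretumor. Here too the groups did not overlap, while the 5 tumor arrays spread widely (9.90 ± 1.43) within the shared error estimate, and the adjusted p was 0.23. Mycn, a Myc family driver of precursor division, stood at 6.74 ± 0.36 and 7.49 ± 0.21, 1.68-fold higher without overlap. Its tumor arrays also spread widely (6.89 ± 1.04), and the test was not passed (adjusted p = 0.476). The cyclins Ccnd1 (6.25 ± 0.12 and 6.31 ± 0.32) and Ccnd2 (10.54 ± 0.55 and 10.36 ± 0.59) overlapped between the groups.

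Markers of division were bright in both groups. Mki67 read 10.37, 10.53, 10.40 and 10.73 in GCP and 10.00, 10.44, 10.87, 10.28 and 10.22 in pretumor, with overlap in both directions and a difference of -0.14 ± 0.29 (SE, adjusted p = 0.927). Top2a, a topoisomerase of dividing cells, was at 9.34 ± 0.17 and 9.34 ± 0.31, and Pcna, the replication clamp, at 10.76 ± 0.22 and 10.62 ± 0.42. Of 42 measured genes of G1/S and DNA replication 3 were called higher and 1 lower (median difference 0.08). Of 39 mitotic genes 0 were called higher and 4 lower (median -0.06).

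Cdc6, which loads the replicative helicase onto origins, read 7.10, 6.79, 6.97 and 6.71 in GCP and 7.85, 8.57, 8.76, 8.32 and 8.54 in pretumor. The groups did not overlap, with pretumor 1 the lowest of its group, and the level rose 2.85-fold (1.51 ± 0.17 log2 units, SE, adjusted p = 0.000393). This call held in every alternative. The helicase subunits Mcm3 and Mcm4 were the others called higher, 1.83-fold (adjusted p = 0.021) and 1.72-fold (adjusted p = 0.0163). Mcm3 read 10.02 and 9.81 on GCP 1 and 2 but 9.04 and 9.12 on GCP 3 and 4, and its pretumor arrays ran from 10.22 to 10.63, so the gap was small against the first pair and wide against the second. Mcm3 lost its call without GCP 3, GCP 4 or pretumor 2 (adjusted p up to 0.0706), and Mcm4 without GCP 3 or GCP 4 (up to 0.0575). Tk1, the thymidine kinase of S phase, was called lower, at 7.29 ± 0.15 and 6.45 ± 0.33 (adjusted p = 0.0185), and lost the call without GCP 1 or GCP 3 (up to 0.0631).

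Among the mitotic genes, Cdc25c, a phosphatase that activates Cdk1, fell 1.49-fold, from 7.52 ± 0.14 to 6.94 ± 0.15 (adjusted p = 0.00935). Its other probe set above the low band was not called. Ccnb2, a mitotic cyclin, read 10.09, 9.90, 9.92 and 10.08 in GCP and 9.57, 9.22, 9.75, 9.09 and 9.32 in pretumor. The groups lay close without overlap (1.53-fold lower, adjusted p = 0.0189), and the call was lost without GCP 1, GCP 4 or pretumor 2 (adjusted p up to 0.064). The calls of Cdk1 and Stmn1, with falls of 0.29 and 0.15 log2 units, were lost without 10 and 8 of the arrays in turn (adjusted p up to 0.138 and 0.114). For Cdk1 these were all GCP and pretumor arrays but pretumor 2, with tumor 1 and 4, and for Stmn1 all but pretumor 3.

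Of 18 inhibitors of the cell cycle and Rb family genes, 3 were called higher and 0 lower, with a median difference of 0.26. Wee1, the kinase that holds Cdk1 inactive, read 4.96, 5.07, 4.94 and 5.20 in GCP and 5.41, 6.56, 7.09, 6.63 and 6.24 in pretumor. The groups did not overlap, pretumor 1 was nearest to GCP, and the rise was 2.55-fold (1.35 ± 0.27 log2 units, SE, adjusted p = 0.0135). Cdkn2c, which encodes the Cdk4 and Cdk6 inhibitor p18, was at 5.07 ± 0.33 and 5.91 ± 0.22 (adjusted p = 0.0212). The stress-induced Gadd45b was at 5.72 ± 0.32 and 6.70 ± 0.17 (adjusted p = 0.0334). Cdkn2c lost its call without GCP 3, GCP 4, pretumor 2 or pretumor 4 (up to 0.0732), and Gadd45b without GCP 1, 2 or 4 or pretumor 2, 3, 4 or 5 (up to 0.102). With the GCP pairs averaged, Cdc6 stayed called (adjusted p = 0.00953) and the remaining genes of G1/S, mitosis and inhibition named here as called did not.

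The bright gene with the largest fall was Fabp7, the brain lipid binding protein of radial glia, Bergmann glia and neural progenitors. It read 13.03, 13.52, 13.12 and 13.29 in GCP and 9.75, 10.09, 10.22, 9.66 and 9.20 in pretumor. The gap between the groups exceeded the range within either of them. The fall was 11.0-fold (-3.45 ± 0.38 log2 units, SE, adjusted p = 0.000389). Ndn, encoding necdin, a growth suppressor of postmitotic neurons, read 11.06, 11.14, 11.64 and 11.43 in GCP and 8.94, 8.38, 9.51, 9.20 and 8.89 in pretumor. It fell 5.04-fold without overlap (adjusted p = 0.00161), and its other probe set fell 4.55-fold.

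Kcnd2, the A-type potassium channel subunit Kv4.2 of granule neurons, had the largest fall of the called genes. It read 5.30, 5.90, 7.16 and 6.69 in GCP and 1.30, 1.30, 1.66, 1.97 and 2.59 in pretumor, where the first pair of pretumor arrays sat at the floor. The level fell by at least 4.81-fold (limma adjusted p = 3.19e-05). A receptor for netrins that guides migrating granule cells, Unc5c, read 5.56, 5.59, 5.22 and 5.77 in GCP and 2.54, 2.20, 2.44, 2.50 and 2.62 in pretumor, at least 2.90-fold lower (adjusted p = 1.82e-07). Both genes went from above the low band on every GCP array to within it on every pretumor array.

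Other large falls were in genes of varied function. Nid2, a basement membrane protein, went from 5.73 ± 0.19 to 1.59 ± 0.31, at least 3.32-fold lower (adjusted p = 2.5e-08). Slc39a8, a zinc importer, went from 5.33 ± 0.23 to 2.73 ± 0.16 (at least 2.52-fold, adjusted p = 1.61e-07). Apbb1ip, which binds the small GTPase Rap1, fell at least 5.58-fold (adjusted p = 2.2e-05), with means of 6.48 ± 0.56 in GCP and 3.23 ± 0.22 in pretumor. Vegfc, a vascular growth factor, read 5.90, 5.95, 6.76 and 7.03 in GCP and 3.31 to 3.63 in pretumor, a tight group below all GCP arrays (at least 5.31-fold lower, adjusted p = 0.000393). Ptn, the heparin-binding growth factor pleiotrophin, fell 4.35-fold, from 7.95 ± 0.29 to 5.83 ± 0.41 (adjusted p = 0.00299). Tagln3, a neuronal calponin-like protein, fell 4.18-fold, from 8.37 ± 0.43 to 6.31 ± 0.45 (adjusted p = 0.00251). Plagl1, an imprinted zinc finger factor, and Limch1, an actin-binding regulator of myosin, fell from 4.47 ± 0.54 and 4.70 ± 0.33 into the low band. Rlbp1, a retinoid-binding protein found in glia, and Tes, a focal adhesion protein, did so from 4.16 ± 0.37 and 5.11 ± 0.42. Prkce, a protein kinase C, and Postn, the matrix protein periostin, also met the rule for large falls. Prkce lost its call without any 1 of GCP 2, 3 and 4, pretumor 1, 2, 4 and 5 and tumor 1, 2 and 5 (adjusted p up to 0.129), and Postn without any 1 of the 9 GCP and pretumor arrays (up to 0.107).

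**Figure D2:**
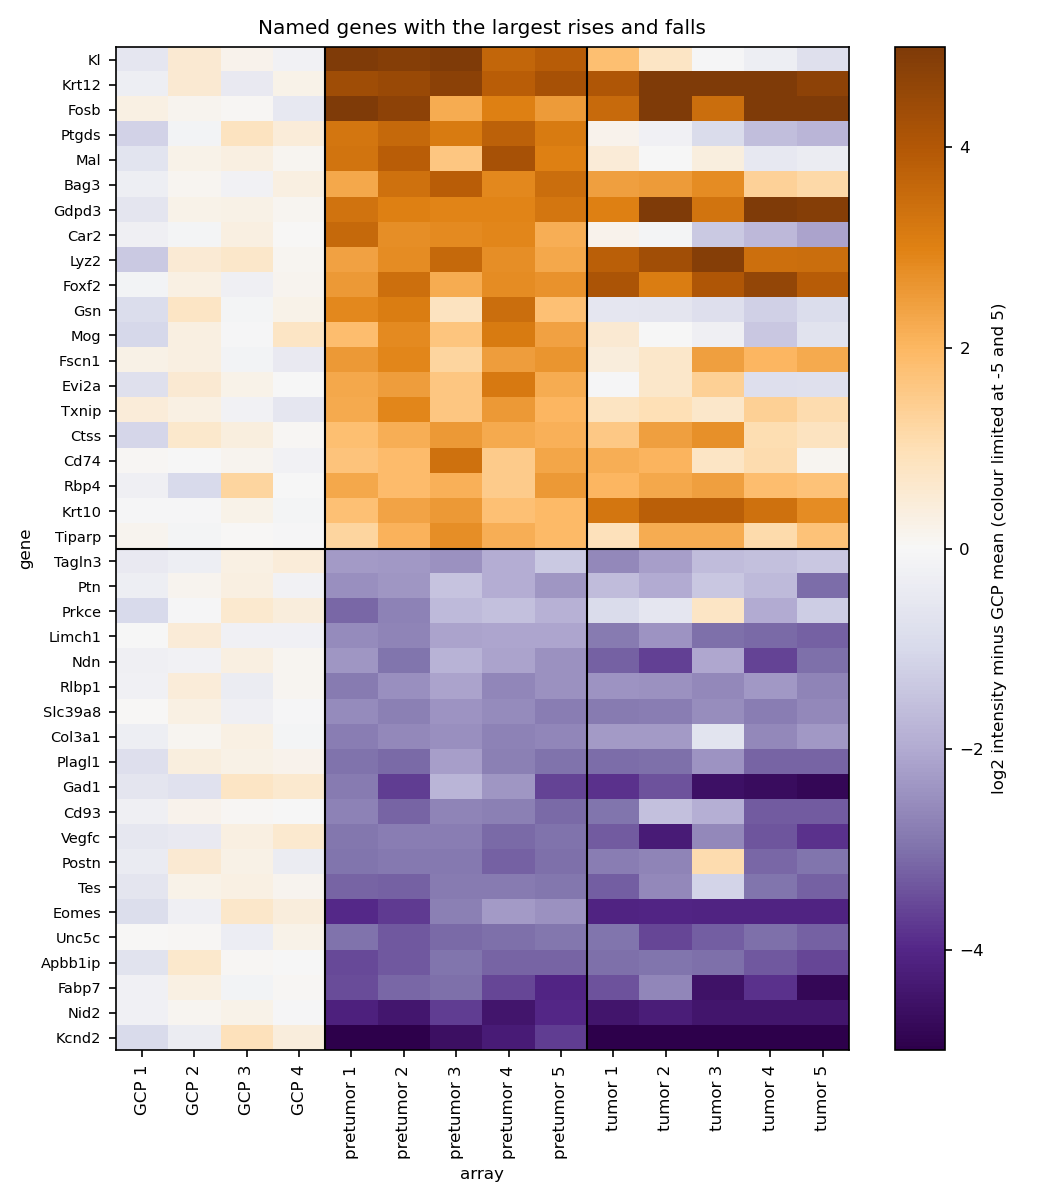
Log2 intensity minus the GCP mean (colour, limited at -5 and 5) on each of the 14 arrays for the 20 named genes with the largest rises (top) and the 20 with the largest falls (bottom). Genes are ordered by pretumor minus GCP, and the vertical lines part the GCP, pretumor and tumor arrays. The tumor arrays are near the GCP mean for Ptgds, Mal, Car2, Gsn and Mog and near or above the pretumor level for Krt12, Lyz2, Foxf2 and Krt10.

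Genes of postmitotic granule neurons were called in 1 direction. Of 22 measured, 0 were called higher and 6 lower (27.3%, against 3.25% of all genes). The median difference was -0.45, or -0.79 over the 13 members above the low band. The called members were Kcnd2, Neurod1, Gap43, Cntn1, Cbln1 and Syt1, some of which other lists hold too. The summed intensity of the 22 members ran from 28561 to 29977 on the GCP arrays and from 14881 to 21593 on the pretumor arrays. This sum includes Neurod1 and Gap43, whose falls are a large part of that separation, and is not evidence for the list as a whole. Gap43, a growth cone protein, read 12.08, 12.03, 12.35 and 12.12 in GCP and 10.49, 10.60, 11.31, 11.30 and 11.11 in pretumor. The groups did not overlap, at a 2.27-fold lower level (adjusted p = 0.03), though the call was lost without any 1 GCP array or pretumor 1, 2 or 5 (up to 0.094). Cntn1, a contact protein of axons, was called at 6.94 ± 0.55 and 5.13 ± 0.80 (adjusted p = 0.0381), and lost the call without GCP 2, 3 or 4, pretumor 1, 2, 4 or 5, or tumor 4 (up to 0.125). Syt1, the calcium sensor of vesicle release, was called in the low band and lost its call without 9 arrays in turn, GCP 1, 2 and 4, every pretumor array and tumor 4 (up to 0.11). Without GCP 2, GCP 4 or pretumor 1, 2 or 5 the list count was 3. It was 1, for Kcnd2, with the GCP pairs averaged.

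The neuronal cytoskeleton moved in both directions. Of 40 measured members 2 were called higher and 7 lower, at a median difference of -0.15. The count of members called lower was 3 without GCP 2, GCP 4, pretumor 1 or pretumor 2, and 10 without tumor 2. It was 3, with 0 higher, when the GCP pairs were averaged. Pfn2, an actin-binding profilin, fell 1.45-fold, from 9.50 ± 0.13 to 8.96 ± 0.13 (adjusted p = 0.00258), and Tmsb4x, an actin-sequestering thymosin, fell 1.37-fold, from 13.27 ± 0.16 to 12.82 ± 0.15 (adjusted p = 0.00999). Nefl, the light neurofilament chain, was called lower within the low band (3.64 ± 0.27 and 2.11 ± 0.35). Crmp1, a collapsin response mediator, read 9.14, 9.12, 8.75 and 8.72 in GCP and 9.71, 9.93, 9.94, 9.83 and 9.56 in pretumor. It rose 1.82-fold without overlap (adjusted p = 0.006). Stmn4, a neural stathmin that destabilises microtubules, rose 2.39-fold, from 9.60 ± 0.31 to 10.86 ± 0.17 (adjusted p = 0.0157), but not without GCP 2 (0.0545). Crmp1 (adjusted p = 0.0612) and Stmn4 (0.13) were not called with the GCP pairs averaged. Tubb2a, a neuronal beta-tubulin, was called at 12.46 ± 0.24 and 11.57 ± 0.32 (1.85-fold lower, adjusted p = 0.0278), and lost its call without GCP 2, 3 or 4 or pretumor 1, 2 or 5 (up to 0.094). The tubulins Tubb3 (10.35 and 10.42) and Tuba1a (15.27 and 15.10) did not pass the test.

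Of 29 synaptic vesicle and release genes 0 were called higher and 3 lower, and 21 lay in the low band in both groups. Homer2, a postsynaptic scaffold, fell at least 1.48-fold, from 4.57 ± 0.14 to 3.60 ± 0.20 (adjusted p = 0.00546), but was not called with the GCP pairs averaged (0.0679). Of 27 voltage-gated ion channels 0 were higher and 2 lower, Kcnd2 and the potassium leak channel gene Kcnk2, whose call (5.70 ± 0.56 and 3.71 ± 0.77, adjusted p = 0.0473) was lost without any 1 of 11 arrays (up to 0.129), all but pretumor 4 and tumor 2 and 3. Of 32 neurotransmitter receptors 1 was called lower, Gabra2 in the low band, and 0 higher.

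Immediate early genes are induced within minutes by growth factors, depolarisation or tissue dissociation, and some were called higher in pretumor. Of 38 measured members 6 were called higher (15.8%, against 1.99% of all genes), 0 lower and 32 not at all. In 11 the groups did not overlap with pretumor higher, against 5.49% of all genes. The median difference was 0.38 over the list and 0.88 over its 21 members above the low band. Atf3, a stress-induced bZIP factor, read 10.04, 9.99, 10.30 and 8.94 in GCP and 12.05, 12.09, 11.52, 11.87 and 11.42 in pretumor. GCP 4 was the lowest, and the lowest pretumor array stood above the highest GCP array. Atf3 rose 3.92-fold (1.97 ± 0.27 log2 units, SE, adjusted p = 0.00186), and its second probe set above the low band rose 6.08-fold.

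Klf4, a zinc finger factor, read 7.20, 6.51, 7.90 and 6.77 in GCP and 9.65, 9.18, 9.98, 8.52 and 8.32 in pretumor, a 4.10-fold rise without overlap (adjusted p = 0.01). Egr2, an early growth response factor, rose 2.71-fold, from 6.17 ± 0.29 to 7.61 ± 0.22 (adjusted p = 0.00245). The orphan nuclear receptor Nr4a2 was called higher at 2.48 ± 0.20 and 3.87 ± 0.45, in the low band. Fosb, a partner of Jun in AP-1, read 2.38 to 3.15 in GCP and 8.20, 7.57, 5.07, 5.90 and 5.38 in pretumor, at least 5.36-fold higher (adjusted p = 0.0428). Its pretumor arrays spread more widely than their gap to GCP. The call of Fosb was lost without any 1 of the 4 GCP arrays, pretumor 1, 2, 4 and 5 and tumor 5 (adjusted p up to 0.12), and with the Gapdh ratio as a covariate. Klf10, an early TGF-beta response gene, rose 2.66-fold (adjusted p = 0.038), and lost its call without any 1 of 10 arrays (up to 0.121), namely the 4 GCP arrays, pretumor 2 to 5 and tumor 4 and 5.

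Not every immediate early gene was called. Fos was bright in both groups, at 11.72 ± 0.38 and 12.24 ± 0.32 (adjusted p = 0.244). Jun read 10.99, 10.35, 10.77 and 10.35 in GCP and 11.45 to 11.82 in pretumor without overlap, and missed the threshold (adjusted p = 0.0684). Egr1 stood at 8.62 ± 0.57 and 9.51 ± 0.58 (adjusted p = 0.275), and Dusp1, a phosphatase that ends MAP kinase signals, at 11.19 and 11.18. Cell dissociation preceded freezing in every group, and its part in these levels was not tested. With the GCP pairs averaged, 2 of the 6 calls stood, Atf3 and Egr2.

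A subset of the heat shock chaperones rose. Of 41 measured members 9 were called higher and 0 lower, 14 did not overlap with pretumor higher, and the list median was 0.13. Bag3, a co-chaperone of Hsp70 in protein quality control, read 5.54, 5.92, 5.66 and 6.17 in GCP and 8.11, 9.19, 9.66, 8.71 and 9.27 in pretumor. Its lowest pretumor array was well above all GCP arrays, and it rose 8.97-fold (3.16 ± 0.38 log2 units, SE, adjusted p = 0.000722). Hsph1, encoding Hsp105, read 10.18, 10.25, 9.91 and 10.23 in GCP and 11.48, 11.93, 12.21, 12.07 and 11.90 in pretumor. Both groups were narrow, and the rise was 3.42-fold (adjusted p = 0.00297).

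Hspa1a, an inducible Hsp70, read 11.13, 11.36, 11.00 and 9.66 in GCP and 12.16 to 12.53 in pretumor, where GCP 4 was low as it was for Atf3 (3.00-fold higher, adjusted p = 0.0152). Hspa1b, its near-identical neighbour whose probes may share signal with it, was called at 2.62-fold (adjusted p = 0.0372) but not without any 1 GCP array or pretumor 1, 2, 4 or 5 (up to 0.0917). The mitochondrial partners Hspd1 (Hsp60) and Hspe1 (Hsp10) rose 1.89-fold and 1.90-fold (adjusted p = 0.000393 and 0.0116). Dnajb1, the inducible Hsp40, rose 2.05-fold, from 7.26 ± 0.30 to 8.29 ± 0.24 (adjusted p = 0.00263). Hsp90aa1, the inducible Hsp90, was called at 1.54-fold higher (adjusted p = 0.0206), but not without GCP 1, GCP 3, GCP 4 or pretumor 2 (up to 0.0652). Cryab, a small heat shock protein, was called within the low band. Cryab lost its call without GCP 1, 2 or 4 or pretumor 1, 2, 3 or 4 (up to 0.0793). Hspa8, the constitutive Hsc70, was at 12.33 and 12.47 and did not pass, nor did any of the 7 measured Cct subunits of the cytosolic chaperonin. With the GCP pairs averaged, 5 of the 9 calls stood, those of Bag3, Hsph1, Hspa1a, Hspd1 and Dnajb1. Without GCP 1, GCP 4 or pretumor 2 the list count was 6.

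The heat shock element, the site of the heat shock factors, is built of GAA repeats in alternating orientation. The letters GAANNTTC were sought on both strands of the RefSeq promoters, which run from 250 bases before to 50 after the start (assembly GRCm38.p6). They were present in 477 of the 6576 measured genes with a promoter (7.25%), in 14 of 34 chaperone genes (41.2%), and in 6 of the 7 chaperone genes called higher that had one (85.7%). A longer form of the element, in which the next GAA of the repeat follows, contains the short one and was present in 0.563% of measured genes and in 5 of the 34 (14.7%). A match describes letters and not a bound site. The stretches of the called genes are shown 5' to 3' because the genes share the motif, with GAANNTTC in capitals. The 2 that lie past the start are cut short. Those of Hspa1a and Hspa1b are identical, and those of Hspd1 and Hspe1 are the same stretch read on opposite strands, since these genes are divergent neighbours.
Bag3, chr7:128523615-128523632, plus strand: gatgggaccaGAAGTTTC
Hsph1, chr5:149636278-149636305, minus strand: gcagattctgGAAAGTTCtcctcagtag
Hspa1a, chr17:34972233-34972280, minus strand: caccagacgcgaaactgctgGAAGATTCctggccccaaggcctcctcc
Hspa1b, chr17:34959315-34959362, minus strand: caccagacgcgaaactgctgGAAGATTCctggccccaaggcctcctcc
Hspd1, chr1:55088044-55088091, minus strand: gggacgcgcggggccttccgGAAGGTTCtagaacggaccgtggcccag
Hspe1, chr1:55088044-55088091, plus strand: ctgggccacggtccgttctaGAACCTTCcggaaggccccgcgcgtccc

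Chaperones of the endoplasmic reticulum gave 1 call among 28 measured genes. Herpud1, which serves degradation of misfolded proteins there, stood at 7.06 ± 0.19 and 8.13 ± 0.38 (2.11-fold, adjusted p = 0.0323), and lost its call without any 1 GCP array or pretumor 2, 3, 4 or 5 (up to 0.0985). Hspa5, the main chaperone of that compartment, was at 12.07 and 12.87 (adjusted p = 0.119). The share called higher was 3.57%, against 1.99% of all genes. The median of the list was 0.15 and 8 members did not overlap with pretumor higher, against 5.49% of all genes. Of 26 metallothionein and oxidative stress genes 1 was called higher and 1 lower. These were Gstp1, a glutathione transferase (1.33-fold, adjusted p = 0.0141, or 0.124 with the GCP pairs averaged), and the peroxiredoxin gene Prdx2, called at 13.13 ± 0.18 and 12.74 ± 0.15 and lost without GCP 2, 3 or 4 or pretumor 1, 2, 3 or 4 (up to 0.111).

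Genes of cholesterol synthesis were called in 1 direction. Of 19 measured genes 0 were called higher and 7 lower (36.8%, against 3.25% of all genes). In 10 the groups did not overlap with pretumor lower, against 6.58% of all genes. The median difference was -0.60, or -0.88 over the 13 above the low band. The called genes lie along the pathway. Hmgcs1, which makes HMG-CoA, read 10.75, 11.01, 10.79 and 10.77 in GCP and 8.93, 9.24, 9.76, 9.83 and 9.51 in pretumor, with a clear gap between the groups (2.60-fold lower, adjusted p = 0.00258). Nsdhl, a late enzyme that removes methyl groups from the sterol ring, read 8.28, 8.34, 8.53 and 8.45 in GCP and 6.43, 6.29, 6.76, 6.86 and 7.00 in pretumor. It fell 3.32-fold (-1.73 ± 0.16 log2 units, SE, adjusted p = 0.000143), and its other probe sets, both called, fell 2.21-fold and 2.90-fold.

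Msmo1, the sterol methyl oxidase that acts just before Nsdhl, read 7.82, 7.90, 8.07 and 8.71 in GCP and 6.38, 6.55, 6.53, 7.01 and 6.68 in pretumor, 2.81-fold lower without overlap (adjusted p = 0.00258). Fdps, which makes farnesyl diphosphate, and Fdft1, the squalene synthase, fell 1.90-fold and 1.84-fold (adjusted p = 0.00248 and 0.00145). Idi1, the isopentenyl diphosphate isomerase, was called 2.15-fold lower (adjusted p = 0.0212) but not without GCP 1, 2 or 4 or pretumor 2 (up to 0.0728), and Tm7sf2, a sterol reductase, at least 1.46-fold lower (adjusted p = 0.0357) but not without any 1 GCP array or pretumor 2 (up to 0.0947). Cyp51 (8.37 ± 0.24 and 7.77 ± 0.31, adjusted p = 0.173) did not overlap, and Sqle (6.60 ± 0.60 and 5.83 ± 0.27, adjusted p = 0.119) and Dhcr7 (5.00 ± 0.47 and 4.05 ± 0.93, adjusted p = 0.332) did. Srebf1, a regulator of lipid synthesis, was at 6.32 ± 0.45 and 7.60 ± 0.67 (adjusted p = 0.367). With the GCP pairs averaged 5 calls stood, and over the fits that left out 1 array between 5 and 7.

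The sterol element read by SREBP factors was sought as TCACNCCA on both strands. It was present in 337 of 6576 measured genes with a promoter (5.12%) and in 2 of 16 genes of the list (12.5%), which were Hmgcs1 and Msmo1. The longer TCACNCCAC, which contains it, was present in 1.64% of measured genes and in Hmgcs1. The stretches around the short form are shown, with it in capitals, because both genes fell.
Hmgcs1, chr13:119690194-119690241, plus strand: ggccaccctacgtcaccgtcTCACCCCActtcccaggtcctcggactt
Msmo1, chr8:64733728-64733775, minus strand: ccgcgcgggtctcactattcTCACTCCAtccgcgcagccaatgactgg

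Neighbouring lipid pathways had few calls. Of 15 fatty acid synthesis and desaturation genes limma called 0, with 3 at an unadjusted p under 0.05, and Scd2, a desaturase, stood at 11.74 ± 0.38 and 11.51 ± 0.16 (adjusted p = 0.604). Of 12 genes of cholesterol transport and storage 1 was called higher, Npc1, which moves cholesterol out of lysosomes. It stood at 6.97 ± 0.09 and 7.46 ± 0.21 (adjusted p = 0.0302), and lost its call without any 1 GCP array or pretumor 2 or 5 (up to 0.0894).

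The promoters of genes called higher were also searched for the cAMP and ATF element TGACGTCA and the AP-1 letters TGANTCA, on both strands. The first was present in 9 of 132 genes called higher (6.82%), in 3.3% of genes called lower and in 3.16% of the 6576 measured genes. The second was present in 7 of the 132 (5.3%), in 5.19% of genes called lower and in 7.51% of measured genes. Of the 5 immediate early genes called higher that had a promoter, 0 held the first and 0 the second. These are counts of letters, and no test was made.

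Glycolysis gave 1 call higher and 2 lower among 18 genes. Tpi1, the triose phosphate isomerase, read 11.50, 11.43, 11.57 and 11.51 in GCP and 9.76, 9.84, 9.93, 10.00 and 9.96 in pretumor. Both groups were narrow and far apart, and the fall was 3.04-fold (-1.60 ± 0.24 log2 units, SE, adjusted p = 0.00258). Pgam1, a phosphoglycerate mutase, fell 1.32-fold, from 10.22 ± 0.11 to 9.82 ± 0.04 (adjusted p = 0.0116). Pgam1 lost its call with the GCP pairs averaged (0.0845), with either pair as the only GCP arrays, and under quantile normalization. Its neighbours in the pathway did not pass the test, with Pgk1 at 9.46 and 9.07, Aldoa at 7.80 and 7.80 and Pkm at 8.08 and 8.24. Aldoc, an aldolase of astrocytes and Purkinje cells, was called higher within the low band (2.44 ± 0.16 and 3.67 ± 0.38, adjusted p = 0.00138).

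A few proteasome subunits were called lower. Of 33 measured genes 3 were called lower (9.09%, against 3.25% of all genes) and 0 higher. Of the 33 differences 30 were negative, while 3599 of all 8251 genes had a positive difference, and the list median was -0.22. Psmd13, a lid subunit, fell 1.57-fold, from 8.73 ± 0.10 to 8.08 ± 0.19 (adjusted p = 0.00568). Psmb5, which carries the chymotrypsin-like activity, was called at 11.07 ± 0.19 and 10.54 ± 0.16 (adjusted p = 0.0222), and the deubiquitinase Psmd14 at 10.10 ± 0.18 and 9.66 ± 0.16 (adjusted p = 0.0212). Psmb5 lost its call without GCP 3, GCP 4, pretumor 1 or pretumor 2 (up to 0.0753) and Psmd14 without GCP 3, GCP 4 or pretumor 2 (up to 0.0729), so that without GCP 3, GCP 4 or pretumor 2 the list count was 1. Averaging the GCP pairs left 0 subunits called by limma, with Psmd13 at an adjusted p of 0.0717.

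Of 51 oxidative phosphorylation genes 1 was called higher and 2 lower, at a median of -0.07. All 3 depended on single arrays. Sdha, the catalytic subunit of succinate dehydrogenase, lost its call without 7 arrays in turn (GCP 2 and 4, pretumor 1 to 4 and tumor 4), Sdhd, its membrane anchor, without 11 (all but GCP 1, pretumor 3 and tumor 1), and Ndufa9, of complex I, without GCP 3, GCP 4, pretumor 1 or pretumor 5 (adjusted p up to 0.0838, 0.138 and 0.073). Of 32 cytosolic ribosomal protein genes 1 was called, Rpl13a, higher at 9.25 ± 0.28 and 10.10 ± 0.22 (1.80-fold, adjusted p = 0.0119), and the list median was 0.03. Rpl13a lost its call with the GCP pairs averaged (0.0878), with the replicate block, and with GCP 3 and 4 as the only GCP arrays.

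In signalling lists the calls were few. Of 36 IGF, PDGF and FGF genes 0 were called higher and 2 lower, Ptn and, in the low band, the binding protein Igfbp4. Of 41 Wnt, BMP and TGF-beta genes 1 was called lower, Chrd in the low band, which lost the call without 11 arrays in turn (adjusted p up to 0.131), all but GCP 4, pretumor 4 and tumor 2. Of 20 Notch, Hes and Id genes 4 were called lower and 0 higher. They were Notch3, Hes5 and Mfng in the low band and Id4, with 7 members not overlapping on the lower side. Notch3 lost its call without GCP 2 or GCP 4 (up to 0.0568), Hes5 without GCP 4 (0.053), and without GCP 4 the call of Mfng alone stood.

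Of 32 chemokine and cytokine genes 0 were called by limma, and 5 had an unadjusted p under 0.05. Cxcl12, the meningeal chemokine that holds precursors at the surface, read 7.98, 8.26, 9.14 and 8.92 in GCP and 6.39, 6.38, 7.32, 6.77 and 6.59 in pretumor. The groups did not overlap, but the tumor arrays varied (7.05 ± 1.20) and the adjusted p was 0.0702. Cxcl12 was called without tumor 3 (adjusted p = 0.00558), with the 9 GCP and pretumor arrays alone, and when only probe sets with a mean of at least 4 were tested. Cxcr4, its receptor on precursors, stood at 6.62 and 6.45 (adjusted p = 0.978). Of 45 axon guidance and migration genes 1 was called higher, the adhesion molecule Ncam1, and 2 lower, Unc5c and Cntn1. Ncam1 stood at 11.37 ± 0.19 and 12.21 ± 0.12 (1.79-fold, adjusted p = 0.0234), with a second probe set called at 1.95-fold, and the call of the first was lost without GCP 2, 3 or 4 or pretumor 1 or 4 (up to 0.0761). Reln, the secreted guide of migrating neurons, was at 11.07 and 10.29 (adjusted p = 0.138).

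Of 20 neural stem and progenitor genes Fabp7 was the 1 called. Sox2 (9.23 ± 0.15 and 8.45 ± 0.49, adjusted p = 0.471) was below and Nes, encoding nestin (6.17 ± 0.27 and 7.62 ± 0.54, adjusted p = 0.0858), above its GCP level without overlap, and neither passed. Of 36 chromatin genes 0 were called higher and 2 lower, Hmgb3 and Smarcb1. Hmgb3, a chromatin protein, lost the call without any 1 GCP array or pretumor 1, 2 or 5 (up to 0.0928), and Smarcb1, a core SWI/SNF subunit, without GCP 2, 3 or 4 or pretumor 2 or 3 (up to 0.0991). Of 37 genes of p53, the Bcl2 family and caspases 1 was higher and 1 lower. Mdm2, the ubiquitin ligase of p53 and one of its targets, stood at 5.63 ± 0.14 and 6.79 ± 0.50 (2.23-fold, adjusted p = 0.0226) and lost its call without GCP 2, 3 or 4 or pretumor 2 or 4 (up to 0.0731). Casp8 was called lower within the low band and lost the call without GCP 2, 3 or 4 or pretumor 2 (up to 0.0765).

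**Figure D3:**
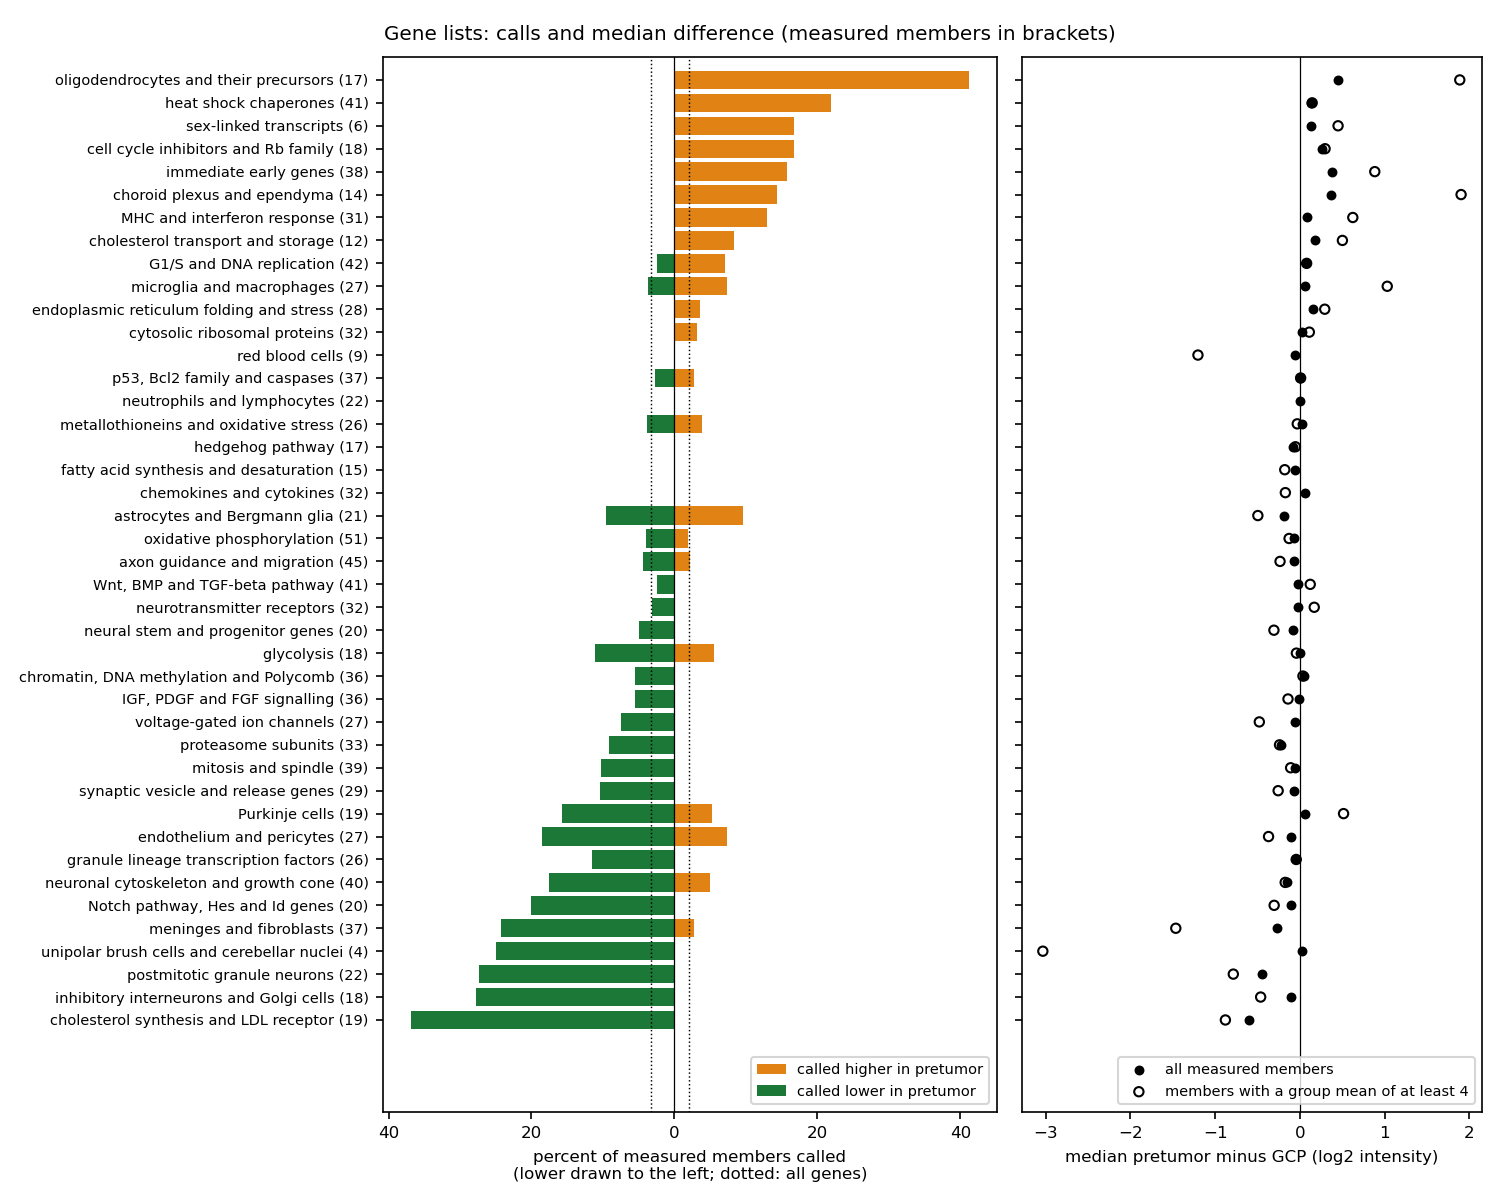
Left, percent of the measured members of each list called higher (orange, to the right) or lower (green, to the left) in pretumor, with the share over all genes dotted (1.99% and 3.25%). Right, median pretumor minus GCP in log2 intensity, over all measured members (filled) and over those with at least 1 group mean of 4 or more (open); oligodendrocyte markers and heat shock chaperones are at the top and cholesterol synthesis at the bottom.

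Some of the largest rises lay outside these lists. Krt12, a keratin best known from the cornea, read 2.84, 3.69, 2.67 and 3.35 in GCP and 7.48, 7.60, 7.90, 6.97 and 7.36 in pretumor. It was in the low band on every GCP array and far above it on every pretumor array (at least 11.0-fold higher, adjusted p = 3.06e-05). Krt10, a keratin of epidermis, read 7.57, 7.59, 7.85 and 7.55 in GCP and 9.40, 10.00, 10.18, 9.42 and 9.57 in pretumor, a 4.21-fold rise (adjusted p = 0.000376). Txnip, an inhibitor of thioredoxin that responds to glucose, read 5.91, 5.73, 5.29 and 4.89 in GCP and 7.71, 8.38, 7.06, 8.00 and 7.47 in pretumor. The groups did not overlap, and the rise was 4.82-fold (adjusted p = 0.0007).

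Tiparp, an ADP-ribosyltransferase induced by the aryl hydrocarbon receptor, went from 3.68 ± 0.11 to 5.73 ± 0.53, a rise of at least 3.31-fold (adjusted p = 0.00331). Fscn1, the actin-bundling fascin, went from 3.75 ± 0.37 to 6.12 ± 0.64 (at least 4.35-fold, adjusted p = 0.0123). Gdpd3, a phosphodiesterase of lysophospholipids, went from 2.67 ± 0.40 to 5.76 ± 0.18 (at least 3.39-fold, adjusted p = 0.0116). Evi2a, a small membrane protein gene inside an intron of Nf1, was at least 2.36-fold higher (adjusted p = 0.0143), and its other probe set was not called. These 4 genes lost their calls with the GCP pairs averaged, at adjusted p from 0.0546 for Tiparp to 0.124 for Fscn1. Rbp4, the carrier of retinol, was at 2.74 ± 0.94 and 4.81 ± 0.39 (adjusted p = 0.00823).

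**Figure D4:**
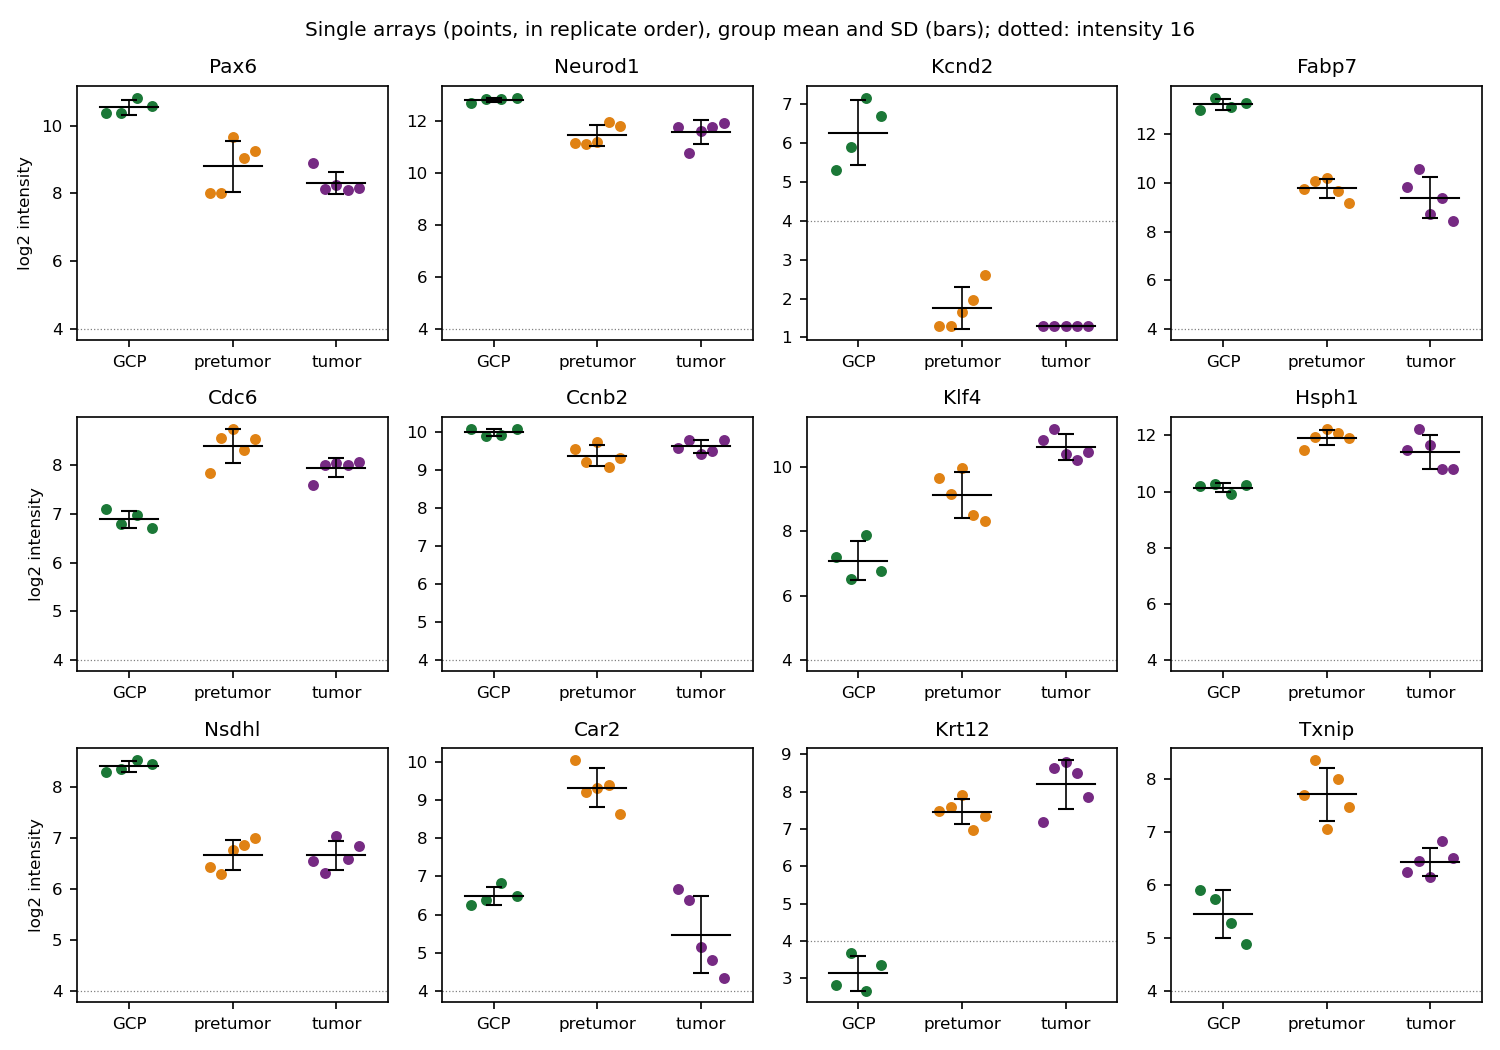
Log2 intensity of 12 genes on each array (points, in replicate order within GCP, n = 4, pretumor, n = 5, and tumor, n = 5), with the group mean and SD as bars and an intensity of 16 dotted where it falls in range. Pax6, Neurod1, Kcnd2, Fabp7, Ccnb2 and Nsdhl are lower and Cdc6, Klf4, Hsph1, Car2, Krt12 and Txnip higher on every pretumor array than on every GCP array.

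Because the cells were not sorted, markers of other cerebellar cells were read beside these results. Among oligodendrocyte markers 7 of 17 measured were called higher and 0 lower, with a median of 0.45, and 1.89 over the 8 above the low band. Car2, a carbonic anhydrase of oligodendrocytes, read 6.25, 6.38, 6.83 and 6.50 in GCP and 10.07, 9.22, 9.31, 9.40 and 8.64 in pretumor (7.16-fold higher, adjusted p = 0.00381). Mal, a myelin proteolipid, read 2.74, 3.60, 3.70 and 3.46 in GCP and 6.66, 7.23, 5.00, 7.57 and 6.39 in pretumor (at least 5.94-fold, adjusted p = 0.00189), with pretumor 3 the lowest of its group. Mog, a myelin surface protein, and Gsn, encoding gelsolin, rose at least 2.18-fold and 2.65-fold (adjusted p = 0.0115 and 0.0156). Mbp, the main myelin protein, did not pass (6.91 ± 0.35 and 7.16 ± 0.39, adjusted p = 0.754). The summed level of the list was 1403 to 1859 in GCP and 1893 to 2767 in pretumor, so the groups were next to each other without overlap. This sum includes Car2, whose rise is a large part of that narrow separation, and is not evidence for the list as a whole. With the GCP pairs averaged 1 of the 7 calls stood, that of Mal, and Car2 was at an adjusted p of 0.0596.

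Choroid plexus markers had a higher summed level in pretumor, but that sum mostly reflects 1 gene, Ttr, which did not overlap between the groups but was not called. Kl, encoding the hormone co-receptor klotho, read 1.49, 2.63, 2.20 and 1.85 in GCP and 7.85, 6.91, 9.06, 5.68 and 5.91 in pretumor, the largest rise of the called genes (at least 8.47-fold, adjusted p = 0.00176). Ttr, the transthyretin that the choroid plexus secretes in quantity, read 9.25, 11.09, 11.64 and 11.12 in GCP and 13.29, 12.89, 13.77, 12.31 and 12.34 in pretumor, without overlap, but missed the test (adjusted p = 0.544). The summed level of the 14 markers was 705 to 3467 in GCP and 5409 to 15390 in pretumor. On the tumor arrays, which enter the shared error estimate, it ran from 62.6 to 1204.5. Of the 14 markers, 2 were called higher and 0 lower. The second, Car14, a carbonic anhydrase in the low band, lost its call without any 1 GCP array or pretumor 1 or 2 (up to 0.0835) and with the GCP pairs averaged, which leaves Kl. Without pretumor 4 the list count was 4. Ptgds, the prostaglandin D synthase of leptomeninges, choroid plexus and oligodendrocytes, read 4.26, 5.30, 6.26 and 5.89 in GCP and 8.58 to 9.21 in pretumor, a 10.5-fold rise (adjusted p = 0.00159). The part of these cells in the results above was not tested.

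Of 27 microglial and macrophage markers 2 were called higher and 1 lower (Cd180 in the low band), with a median of 0.07 and a summed level of 348 to 710 in GCP and 1066 to 1688 in pretumor. Lyz2, the lysozyme of macrophages, read 3.14, 5.03, 5.18 and 4.58 in GCP and 6.90, 7.28, 8.07, 7.25 and 6.77 in pretumor (6.82-fold higher, adjusted p = 0.00408). Ctss, a lysosomal protease of microglia, rose 4.56-fold, from 7.40 ± 0.75 to 9.59 ± 0.26 (adjusted p = 0.0119). Ctss was not called with the GCP pairs averaged (0.0596). The summed level of the list includes Ctss, whose rise is a large part of the separation, while 22 of the 27 markers lay in the low band in both groups. That sum is therefore not evidence for the list as a whole. Csf1r, their growth factor receptor, was at 4.13 and 3.88 (adjusted p = 0.77). Of 31 MHC and interferon genes 4 were called higher and 0 lower. These were Cd74, the invariant chain, at 2.03 ± 0.14 and 4.20 ± 0.75 (adjusted p = 0.0185), and the class II genes H2-Aa, H2-Ab1 and H2-Eb1 in the low band. Cd74 lost its call without GCP 2 or GCP 4 (up to 0.0601), and H2-Ab1 without any 1 GCP array or pretumor 1, 2, 3 or 4 (up to 0.0993). Without GCP 2 or without GCP 4 the list count was 2. Neutrophil and lymphocyte markers, 22 of 22, lay in the low band in both groups, and of 9 red cell genes limma called 0, with 0 at an unadjusted p under 0.05 and Hba-a1 at 10.57 ± 0.49 and 9.65 ± 1.05.

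Meningeal and vascular markers had more calls lower than higher, as did all genes (3.25% lower and 1.99% higher). The shares called lower were 24.3% of the meningeal and 18.5% of the endothelial markers, and 2.70% and 7.41% were called higher. Of 37 measured markers of meninges and fibroblasts 9 were called lower and 1 higher, Ptgds, and 19 did not overlap on the lower side, at a median of -0.27 and -1.47 over the 12 above the low band. Col4a1, a collagen of basement membranes, read 8.38, 8.84, 8.83 and 8.53 in GCP and 6.85, 6.62, 6.92, 6.27 and 6.87 in pretumor (3.84-fold lower, adjusted p = 0.00297). Col3a1, a fibrillar collagen, fell from 4.64 ± 0.25 to 2.00 ± 0.11 (at least 1.56-fold, adjusted p = 0.000722). The summed level of this list was 2480 to 4180 in GCP and 1739 to 2210 in pretumor. Without GCP 3 the count of members called lower was 6.

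Of 27 endothelial and pericyte markers 2 were called higher and 5 lower. Cdh5, the endothelial cadherin, and the endothelial receptors Tie1 and Kdr were called lower within the low band, with Icam2 too, which lost its call without GCP 1, 2 or 4 or pretumor 2, 3 or 5 (up to 0.088). Cldn5, a tight junction claudin, stood at 5.80 ± 0.27 and 4.39 ± 0.40 (2.66-fold, adjusted p = 0.0377), and lost its call without any 1 GCP array or pretumor 2, 3, 4 or 5 (up to 0.113). Cd93, a receptor of endothelium that was in no list, fell from 5.40 ± 0.19 to 2.51 ± 0.25 (at least 2.65-fold, adjusted p = 0.000718). Against this direction, Foxf2, a factor of brain pericytes, read 1.55, 1.95, 1.40 and 1.79 in GCP and 4.24, 5.08, 3.86, 4.45 and 4.34 in pretumor (at least 1.32-fold higher, adjusted p = 0.000329). Foxf2 lost its call with a floor at 16. The other member called higher was Abcb1a, in the low band. It rose by 0.40 to 0.49 log2 units over the fits that left out 1 array (adjusted p up to 0.0371), and was not called with the GCP pairs averaged (0.102). Summed levels overlapped, at 467 to 970 in GCP and 409 to 614 in pretumor.

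Calls among markers of other cerebellar neurons were mostly lower, as they were over all genes (3.25% lower and 1.99% higher), and most members did not pass. The shares called lower were 27.8% of the interneuron and 15.8% of the Purkinje markers. Of 18 markers of inhibitory interneurons and Golgi cells 5 were called lower and 0 higher. Gad1, the GABA-synthesising enzyme, read 5.75, 5.66, 7.11 and 6.95 in GCP and 3.53, 2.67, 4.58, 3.99 and 2.76 in pretumor (at least 5.16-fold lower, adjusted p = 0.0048). Lhx5, Tfap2a and Tfap2b, factors of the GABAergic lineage, and Slc32a1, the vesicular GABA transporter, were called lower within the low band. Slc32a1 lost its call without GCP 2, 3 or 4 or pretumor 2, 4 or 5 (up to 0.109), and Gad1 with the GCP pairs averaged (0.0514). Eomes, the factor of unipolar brush cells, read 4.55, 5.15, 6.07 and 5.78 in GCP and 1.43, 1.65, 2.63, 3.11 and 2.96 in pretumor, at least 2.62-fold lower without overlap (adjusted p = 0.000872). Of 19 Purkinje markers 1 was higher and 3 lower, of which Gad1 and Lhx5 are shared with the interneuron list. The Purkinje median was 0.06, with 11 of 19 differences positive. The 1 called higher was Ppp1r17, in the low band, which lost its call without GCP 2, 3 or 4 or pretumor 1, 3 or 4 (up to 0.0871). Summed levels overlapped for the interneuron list, at 2800 to 3638 in GCP and 1445 to 2904 in pretumor, and for the Purkinje list, at 785 to 1429 and 711 to 997.

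Astrocyte and Bergmann glia markers split, with 2 of 21 called higher and 2 lower. Aldoc and the connexin gene Gjb6 were higher in the low band, and Fabp7 and Id4 lower. Aqp4, the astrocyte water channel, read 8.58, 8.54, 9.45 and 10.20 in GCP and 6.29, 6.42, 6.99, 6.04 and 6.88 in pretumor, without overlap and without passing the test (adjusted p = 0.0824). Clu, encoding clusterin, lay the other way, at 4.15 ± 0.79 and 6.31 ± 0.65 (adjusted p = 0.0574). The summed level of the list was 16124 to 21453 in GCP and 6539 to 11933 in pretumor, and it includes Fabp7, the brightest of its members in GCP. The part of glial cells in the fall of Fabp7 was not tested.

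Sex-linked transcripts differed among the pretumor arrays and were unevenly spread between the groups. Eif2s3y, a translation factor gene on the Y chromosome, read 7.00, 4.75, 7.51 and 5.70 in GCP and 1.55, 1.59, 7.64, 1.39 and 1.39 in pretumor. Pretumor 3 was as high as the GCP arrays, and the other 4 pretumor arrays were in the low band. Eif2s3x, its X-linked copy, read 9.93 on pretumor 3 and 10.61 to 10.93 on those 4, against 9.90 to 10.53 in GCP (adjusted p = 0.417 between the groups). The labels give no sex. Kdm6a, an X-linked histone demethylase that escapes X inactivation, was the 1 of 6 measured sex-linked genes called, higher at 3.26, 3.45, 3.01 and 3.35 in GCP and 4.20, 4.59, 4.08, 4.96 and 5.31 in pretumor (at least 1.54-fold, adjusted p = 0.00704). Its pretumor 3 value was the lowest of its group and still above every GCP array. Xist lay in the low band on all arrays. Without pretumor 3 the fit called 556 probe sets, 223 higher and 333 lower, and 451 of the 541 were among them. Kdm6a was not called with the GCP pairs averaged (0.082). Eif2s3y was above the low band on every GCP array but, among the pretumor arrays, on pretumor 3 alone. Sex may therefore differ with group, and the 2 cannot be fully told apart here. Whether sex has a part in the rise of Kdm6a or in other differences was not tested.

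Levels on the tumor arrays are set beside the pretumor levels for some of these genes. Both differences use the same pretumor arrays. Between tumor and pretumor, limma called 90 of 8251 genes (1.09%). Fabp7, at 9.78 ± 0.40 in pretumor, was at 9.40 ± 0.85 in tumor (adjusted p = 0.751). Nsdhl was at 6.67 ± 0.30 and 6.66 ± 0.28 (adjusted p = 1), Neurod1 at 11.45 ± 0.40 and 11.58 ± 0.46 (adjusted p = 0.901) and Unc5c at 2.46 ± 0.16 and 2.32 ± 0.24 (adjusted p = 0.758). For these genes the low level of the 6-week samples was seen in tumor samples too, with no difference that passed the test.

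Krt10 went from 9.71 ± 0.36 in pretumor to 11.05 ± 0.42 in tumor (adjusted p = 0.00973), so it was higher still. Klf4 was at 9.13 ± 0.71 and 10.63 ± 0.39 (adjusted p = 0.0859), and Bag3 at 8.99 ± 0.60 and 7.87 ± 0.74 (adjusted p = 0.219). Txnip fell back from 7.72 ± 0.50 to 6.44 ± 0.27 (adjusted p = 0.0389). Some genes of oligodendrocytes, choroid plexus and meninges that were high in pretumor were low in tumor. Kl went from 7.08 ± 1.40 to 2.34 ± 1.02 (adjusted p = 0.00453), Ptgds from 8.82 ± 0.28 to 4.56 ± 0.85 (adjusted p = 0.000595), Car2 from 9.33 ± 0.51 to 5.47 ± 1.01 (adjusted p = 0.000989) and Mal from 6.57 ± 0.99 to 3.37 ± 0.44 (adjusted p = 0.00366). Lyz2, of macrophages, was not lower in tumor, at 7.25 ± 0.51 in pretumor and 8.46 ± 0.62 in tumor (adjusted p = 0.272).

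The Gapdh ratio moved with many levels. In the fit with the ratio as a covariate, limma called 1519 of 12422 probe sets for the ratio itself. The same fit called 804 for pretumor minus GCP. Among the arrays with a ratio of at least 0.4 (GCP 1 and 2, pretumor 1, 2 and 4) and among the others (GCP 3 and 4, pretumor 3 and 5), the pretumor minus GCP difference of Fabp7 was -3.44 and -3.50, of Tpi1 -1.60 and -1.59, of Hmgcs1 -1.55 and -1.15, of Atf3 1.99 and 1.85 and of Krt12 4.09 and 4.62. It was larger among the arrays of high ratio for Mal (3.98 and 2.12), Gsn (3.20 and 1.25), Ptgds (4.19 and 2.51) and Pax6 (-2.02 and -1.25), and smaller for Mcm4 (0.43 and 1.17) and Cdc6 (1.30 and 1.80). Both sets gave the same sign for each of the 164 and 268 called genes, which the calls themselves largely fix. No test of these differences between the sets was made.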

How the data were processed

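The 14 arrays carry 12488 probe sets, 66 of them controls that were set aside. The deposited table holds linear intensity values per probe set and array. The steps by which the authors summarised and normalised the signals are not given in the sources used here. Values were floored at the 10th percentile, an intensity of 2.45, then converted to log2. The floor left 497 probe sets constant over the 9 arrays, which were kept. Group means were fitted with limma 3.58.1 in R 4.3.3 on all 14 arrays (11 residual degrees of freedom), with two-sided p-values adjusted by Benjamini-Hochberg. The script was tested on simulated data. Of the 12422 probe sets, 10833 had 1 symbol in the platform annotation, 396 several and 1193 none. For each of 8251 genes the probe set of highest mean was used. Probe sets of 0 genes were called in opposite directions, and of 27 called named genes with another probe set, 13 had another called the same way.

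The members and the 42 gene lists (1062 of 1393 listed genes measured) were chosen with earlier results of these data known. Genes named were the 20 largest rises and 20 largest falls among called genes with non-overlapping groups and a mean of at least 4 in 1 group, up to 3 called members per list and direction (or the brightest member where none was called), and Ptch1, Gli1, Atoh1, Mycn, Ccnd1 and sex-linked genes. Other genes were named after their values were seen. Alternatives changed the floor, pseudocount, normalization, variance prior, filter, samples, replicate block and threshold.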

Additional observations from a re-analysis of the deposited data

Results flagged for a closer look

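Within the named genes, 216 groups of 4 or 5 arrays were examined by Dixon's test for an array far from the rest of its group, and 10 values stood apart; chance gives about 1 in 20 groups. Pretumor 3 accounted for 4 of them. Its Eif2s3y level was 7.64 against 1.39 to 1.59 on the other pretumor arrays. The further Y-linked genes Kdm5d (1.56) and Uty (1.57) were highest there, in the low band, with the others at the floor of 1.30. Fscn1 was lowest there, at 5.01 against 6.25 to 6.67. GCP 3 accounted for 4 others: Gadd45b was highest at 6.19 against 5.51 to 5.62, Krt10 highest at 7.85 against 7.55 to 7.59, Mycn lowest at 6.21 against 6.86 to 6.97, and Sdha lowest at 4.97 against 5.88 to 6.06. Hmgcs1 was highest on GCP 2, at 11.01 against 10.75 to 10.79. Homer2 was highest on GCP 1, at 4.78 against 4.48 to 4.52.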

How the results depend on the processing

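Of 94 called named genes, 28 were called in every alternative, 33 lost the call without at least 1 array, and 0 changed sign while called. Against 541 probe sets called (207 higher, 334 lower), a floor at 16 gave 194 (71, 123), averaged GCP pairs 168 (48, 120), GCP 1 and 2 as the only GCP arrays 203 (59, 144) and GCP 3 and 4 alone 298 (94, 204). An adjusted p under 0.01 gave 212 (75, 137) and a test against a 1.5-fold change 49 (19, 30). Testing the 3670 probe sets with a mean of at least 4 gave 218 lower, and the Gapdh covariate, added after seeing the data, 504 lower. Without 1 array, counts ran from 331 to 624, higher 124 to 254 and lower 207 to 370. For tumor minus pretumor, 124 probe sets became 32 at a floor of 16, 69 with pairs averaged, 76 and 70 with either GCP pair alone, 76 with the replicate block and 70 to 148 without 1 array. GCP and pretumor arrays of the same replicate number had deviations from their group means correlated at r = 0.38, 0.28, 0.51 and -0.27. Arrays of unlike numbers were not compared, so these values do not show whether the number pairs the samples. With the replicate block 383 probe sets were called (147, 236), 338 of them among the 541. The remaining settings gave counts within 1.5 times. The floor at 16 sets low values equal but tests the same probe sets, while the filter tests fewer. Leaving out an array lowered the count in some fits and raised it in others. Why the counts moved was not tested. Values in the low band limit folds to bounds.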
